A study of Mus musculus with 4 samples.

Results

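The genes described here are those that decide whether a cell in G1 commits to division: the D cyclins Ccnd1, Ccnd2 and Ccnd3, their partner kinases Cdk4 and Cdk6, the inhibitors Cdkn1b, Cdkn2a, Cdkn2b and Cdkn2c, and Rb1. Every probe set that the platform annotation maps to 1 of these 10 genes alone was taken, which gave 26 of the 45101 probe sets on the array, 19 of them for cyclins and kinases and 7 for inhibitors and Rb1. Their RNA was read on 4 Affymetrix mouse arrays, 2 of NSCL61 and 2 of NSCL61-sox11. NSCL61 is a p53-/- neural stem cell line of C57BL/6 origin, prepared from telencephalon at embryonic day 14.5 and labelled as resembling glioma-initiating cells. NSCL61-sox11 is the same p53-/- line made to express sox11; how the gene was introduced is not given in the labels. The labels do not name the oncogene of the parental line, which published work on it describes as an activated Ras. Both lines were grown as floating spheres without serum, with insulin, transferrin, bFGF, PDGF and forskolin. According to the submitters' design text, NSCL61-sox11 had lost the ability to form tumours in vivo, and genes that differ from NSCL61 were sought for that reason. Each line is 1 line, and no label says that its arrays stem from separate cultures. The p-values therefore reflect the spread between these arrays alone, which may be technical. An exact permutation test of 2 arrays against 2 cannot give a two-sided p under 0.333.

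In the textbook scheme, growth factor signals raise D cyclins, which bind Cdk4 or Cdk6 and start the phosphorylation of the retinoblastoma protein. Phosphorylation releases E2F factors, which switch on genes of DNA replication. INK4 proteins, the products of Cdkn2a, Cdkn2b and Cdkn2c, bind Cdk4 and Cdk6 and keep D cyclins off them, whereas the CIP/KIP protein made by Cdkn1b mainly restrains Cdk2 and is titrated by cyclin D complexes. In the embryonic brain Ccnd1 and Ccnd2 are the D cyclins of neural progenitors, and Cdkn2a and Cdkn2b belong to the locus most often deleted in glioma.

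The labels were checked first. All 6 Sox11 probe sets read higher in NSCL61-sox11. On the brightest of those tested the arrays were at 5.09 and 4.82 in NSCL61 and 7.74 and 7.97 in NSCL61-sox11 (log2 levels). This probe set also had the largest difference, 2.90, and the smallest was 0.38 on 1453002_at. Of 10 markers of neural stem cells, 7 passed the level filter, while Prom1, Fabp7 and Sox1 did not. Of the 7, 3 fell, counting a gene as changed at an adjusted p under 0.05 in limma. By this measure 19.2% of all genes tested changed (10% higher and 9.19% lower). The summed linear level of the 10 was 23741 to 24789 in NSCL61 and 19743 to 21036 in NSCL61-sox11. Most of each sum was Vim, at log2 levels of 14.36 and 14.40 in NSCL61 and 14.14 and 14.21 in NSCL61-sox11. Sox2 was 3.24-fold lower (limma adjusted p = 0.0019). Pax6 and Vim differed by -0.45 and -0.21 on the log2 scale (adjusted p = 0.040 and 0.020), but were not called without NSCL61 array 1 (adjusted p = 0.13 and 0.14) or without NSCL61 array 2 (0.21 and 0.19), nor was Pax6 without NSCL61-sox11 array 1 (0.11). Nes and Notch1 differed by 0.05 and 0.54, and Msi1 and Hes5 by -0.08 and -0.21. None of these was called. Some markers of other cells moved with the line as well. Of 6 markers of fibroblasts and meninges, 3 of 4 tested rose, Col1a1 by 2.99, Pdgfrb by 2.33 and Col1a2 by 1.10. Their sum was 422 to 676 in NSCL61 and 1674 to 2655 in NSCL61-sox11, taken over all 6. Dcn differed by 0.36 and was not called (limma adjusted p = 0.41), and Lum and Fap lay below the filter. Of 6 markers of endothelial and mural cells, 2 of 4 tested rose, Rgs5 and Acta2 (sums of 338 to 356 and 693 to 832). Cdh5 and Kdr differed by -0.59 and 0.10 and were not called (limma adjusted p = 0.053 and 0.72), and Pecam1 and Tek lay below the filter. Of 6 neuronal markers, 2 of 3 tested rose (sums of 308 to 313 and 445 to 454). Of 5 astrocyte markers Slc1a3 rose, by 1.19 (limma adjusted p = 0.0030). Gfap and Aldh1l1 differed by -0.29 and -0.32, Aqp4 by -0.07 and S100b by 0.08, none of them called. The astrocyte sums were 293 to 321 and 405 to 445, and Slc1a3 was the brightest of the 5 in both lines. The sums were 314 to 358 and 306 to 321 for the oligodendrocyte lineage, and 188 to 194 and 175 to 186 for microglia and blood cells. The part of these differences in the results below was not tested, and in such bulk RNA a change in the share of a cell type and a change of RNA per cell cannot be told apart.

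On the deposited scale, NSCL61-sox11 had less Ccnd2 and more Ccnd3, Cdk6 and Cdkn2c than NSCL61. Ccnd2 was 2.78-fold lower, Cdk6 2.29-fold, Cdkn2c 1.94-fold and Ccnd3 1.37-fold higher, each on the probe set of the gene with the highest mean level, which represents the gene here. A probe set was called changed at an adjusted p under 0.05 in limma (two-sided, Benjamini-Hochberg over 27022 probe sets). On this measure 4 of the 10 genes changed, or 40%, against 19.2% of all 13084 genes tested (10% higher and 9.19% lower). Among these 4, only Ccnd2 stayed called under both control-based scalings described below. By the poly-A controls Ccnd3, Cdk6 and Cdkn2c differed by 0.04, 0.79 and 0.55 (limma adjusted p = 0.90, 0.056 and 0.19). By the hybridisation controls Cdk6 and Cdkn2c stayed called, but Ccnd3, at 0.23, did not (limma adjusted p = 0.32). The 10 genes were chosen with earlier results of these data known, so their shares are descriptions only. Of the 5 cyclins and kinases 2 rose, 1 fell and 2 did not pass, while among the inhibitors and Rb1, also 5 genes, 1 rose and 4 did not pass. The latter share, 20% called, is close to that of all genes. The median log2 difference was 0.23 over the cyclins and kinases and 0.39 over the inhibitors and Rb1, and -0.02 over all genes tested. By probe set, 23 of the 26 passed the level filter, and of these 5 rose, 9 fell and 9 were not called. That is 60.9% called, against 17.3% of all probe sets tested (8.99% higher and 8.32% lower), but 7 of the 14 called probe sets belong to Ccnd2 alone and are not independent. Among those 7, 1416123_at and 1416124_at passed the level filter only through their NSCL61 levels. The levels of the lines did not overlap on 21 of the 23, which was also true of 60.5% of all probe sets tested.

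**Figure D1:**
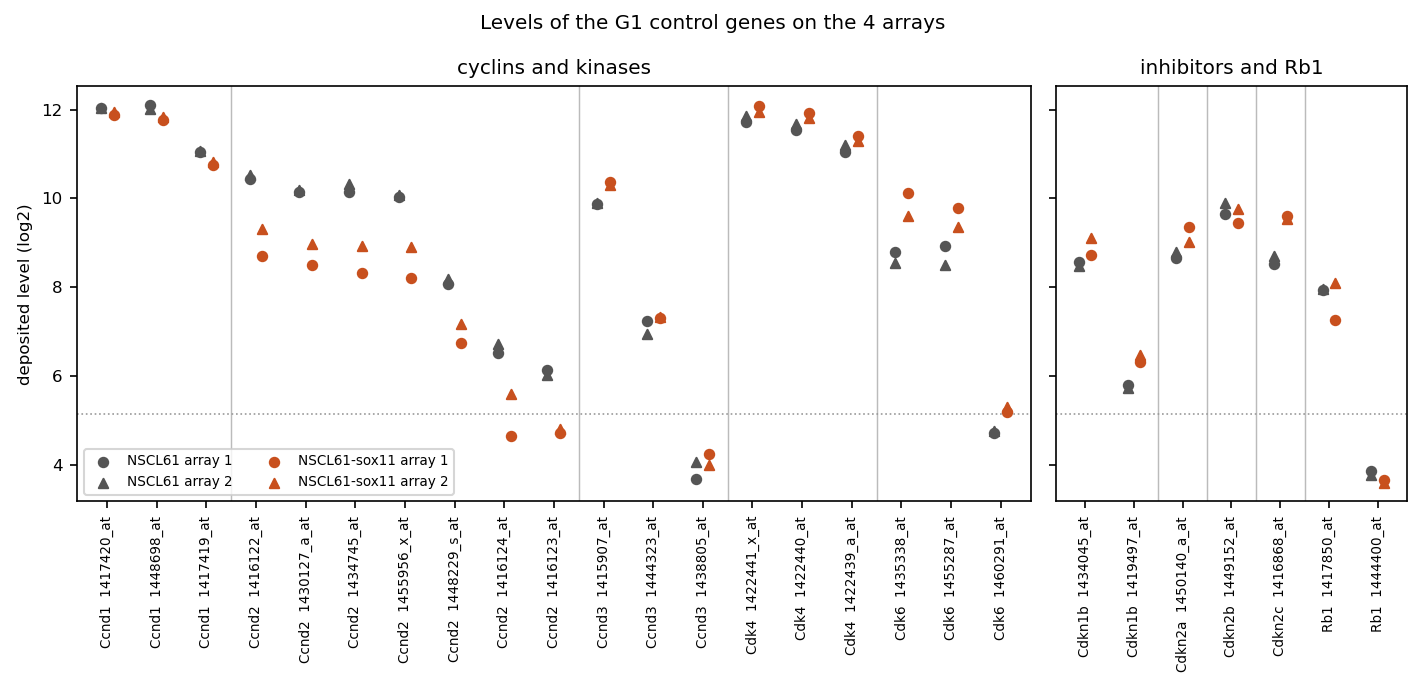
Deposited log2 level of each of the 26 probe sets (horizontal axis, grouped by gene) on each of the 4 arrays; grey marks NSCL61, orange NSCL61-sox11, circles array 1 and triangles array 2, and the dotted line is at 5.15, the lowest mean tested. All 7 Ccnd2 probe sets are lower in NSCL61-sox11, and the 3 Cdk6 probe sets are higher.

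Among the D cyclins, Ccnd2 stood out by the size of its difference. On its representative probe set, 1416122_at, the log2 levels were 10.44 and 10.53 in NSCL61 and 8.71 and 9.31 in NSCL61-sox11. Each NSCL61-sox11 array was thus below each NSCL61 array, and NSCL61-sox11 array 1 was the lowest. The log2 difference was -1.47 (SE 0.19, limma adjusted p = 0.0043), between means of 10.48 ± 0.06 and 9.01 ± 0.43 (SD, n = 2 each). All 7 Ccnd2 probe sets fell, with log2 differences from -1.18 on 1448229_s_at to -1.61 on 1434745_at. Another bright one, 1430127_a_at, read 10.15 and 10.19 against 8.50 and 8.98. On the dim probe sets 1416123_at and 1416124_at the NSCL61-sox11 means were 4.77 and 5.13, under the minimum mean of 5.15 for testing, so the size of the fall is uncertain there. Both passed the level filter only through their NSCL61 means of 6.08 and 6.63, so their calls add no support. The 7 probe sets read the same gene on the same RNA and are not independent of each other. The calls of 6 of the 7 held when any 1 array was left out. For 1416124_at the adjusted p was 0.068 without NSCL61 array 1 and 0.094 without NSCL61 array 2.

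Ccnd1, the D cyclin best known as a target of Ras and mitogen signalling, was high in both lines and differed little. On 1448698_at the arrays read 12.11 and 12.02 in NSCL61 and 11.77 and 11.84 in NSCL61-sox11. The log2 difference of -0.26 was called (SE 0.06, limma adjusted p = 0.036), as was the -0.27 of 1417419_at (adjusted p = 0.042). The brightest Ccnd1 probe set, 1417420_at, read 12.04 and 12.03 against 11.87 and 11.95 and did not pass, at -0.12 (95% interval -0.27 to 0.02, adjusted p = 0.20). Ccnd1 was therefore 1.20-fold lower, and called, on 2 of its 3 probe sets. The lines did not overlap on any of the 3, as on 60.5% of all probe sets tested. Both calls were lost without NSCL61 array 1, NSCL61 array 2 or NSCL61-sox11 array 1, with adjusted p from 0.052 to 0.29.

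Ccnd3, the D cyclin otherwise prominent in blood cells and in differentiated tissue, went the other way. On 1415907_at the levels were 9.88 and 9.89 in NSCL61 and 10.37 and 10.30 in NSCL61-sox11, with little spread within either line. The log2 difference was 0.45 (SE 0.08, limma adjusted p = 0.011). It was no longer called without NSCL61 array 1, at an adjusted p of 0.10, or without NSCL61 array 2, at 0.099. A second tested probe set, 1444323_at, read 7.24 and 6.96 against 7.31 and 7.33 and did not pass (log2 difference 0.22, adjusted p = 0.27). The third, 1438805_at, lay below the level filter at 3.69 to 4.25.

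The D cyclins thus changed unequally, which does not depend on how the arrays are scaled. Within an array, the log2 ratio of Ccnd3 to Ccnd2 was 2.26 and 1.59 in NSCL61-sox11 when set to 0 at its NSCL61 mean, where the arrays lay at 0.04 and -0.04. The ratio of Ccnd1 to Ccnd2 was 1.61 and 1.08 in NSCL61-sox11 on the same footing. Of the 4 such pairs compared, chosen after the values were seen, the others were Cdk6 to Cdk4, which changed by 0.97, and Cdkn2c to Cdkn2b, which changed by 1.13. The lines were apart for all 4 pairs. They were also apart on 60.5% of all probe sets tested, and no such share was computed for pairs of genes. The exact permutation test gave its smallest possible two-sided p (0.333, and 0.333 after Benjamini-Hochberg adjustment). As the pairs were chosen for their values, these results are descriptions only.

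Both partner kinases read higher in NSCL61-sox11, and the rise was called for Cdk6. On 1435338_at the Cdk6 levels were 8.79 and 8.55 in NSCL61 and 10.13 and 9.60 in NSCL61-sox11. The log2 difference was 1.20 (SE 0.18, limma adjusted p = 0.0078), from 8.67 ± 0.17 to 9.87 ± 0.37 (SD, n = 2 each). On 1455287_at the arrays read 8.92 and 8.51 against 9.78 and 9.36, a difference of 0.86 (SE 0.18, adjusted p = 0.025). The 2 NSCL61 arrays differ by 0.41 there, almost as much as the NSCL61-sox11 arrays at 0.42. Both calls were lost without NSCL61 array 2, where the differences were 1.08 (adjusted p = 0.057) and 0.65 (adjusted p = 0.13). A dim further probe set, 1460291_at, was not among those tested. When all 45037 probe sets were fitted, of which 10.1% were called, it rose by 0.51 (adjusted p = 0.029), from 4.73 and 4.77 to 5.21 and 5.32.

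Cdk4 did not pass the test on any of its 3 probe sets. On these the lines did not overlap, as on 60.5% of all probe sets tested. On the brightest, 1422441_x_at, Cdk4 read 11.73 and 11.85 in NSCL61 and 12.07 and 11.95 in NSCL61-sox11. The log2 differences were 0.23 to 0.26, with adjusted p from 0.069 to 0.12. The widest 95% interval, that of 1422439_a_at, ran from 0.02 to 0.43, so a rise of more than 1.5-fold lies outside it. Without NSCL61-sox11 array 2, 1422440_at and 1422441_x_at were called (adjusted p = 0.032 each).

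**Figure D2:**
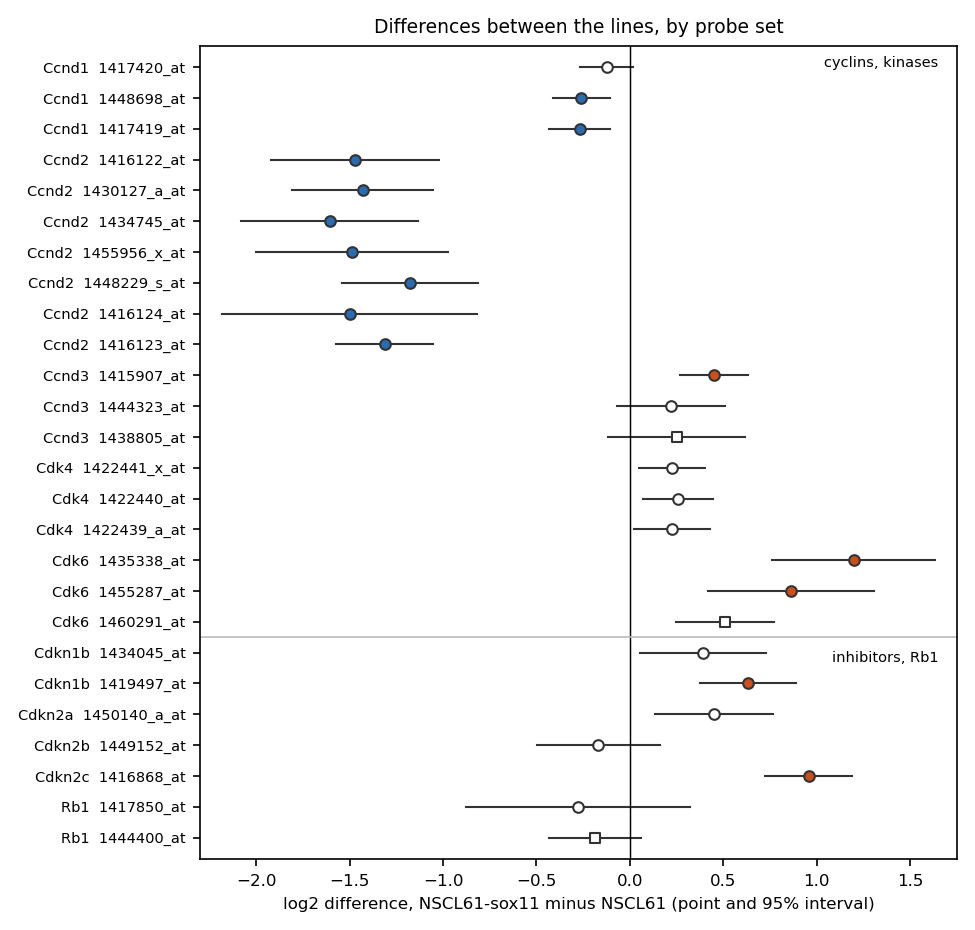
Log2 difference between the lines (horizontal axis, NSCL61-sox11 minus NSCL61) for each of the 26 probe sets, with its 95% interval from limma; filled points were called, blue for lower and orange for higher, open points were not, and squares are the 3 probe sets below the level filter, taken from the fit without that filter. The Ccnd2 points lie between -1.61 and -1.18, and the called points of Cdk6 and Cdkn2c between 0.86 and 1.20.

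Of the inhibitors, Cdkn2c, which encodes the INK4 protein of proliferating progenitors, changed most. Its single probe set read 8.53 and 8.70 in NSCL61 and 9.61 and 9.53 in NSCL61-sox11, with the lines well apart. The log2 difference was 0.96 (SE 0.10, limma adjusted p = 0.0019), and it was called whichever array was left out, at 0.87 to 1.04. Cdkn2b, another INK4 gene, read 9.65 and 9.90 against 9.44 and 9.76. The lines overlapped, and the difference of -0.17 was not called (95% interval -0.50 to 0.16, adjusted p = 0.46).

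Cdkn2a, which encodes an INK4 protein and, from another first exon and reading frame, ARF, has 1 probe set on the array. It read 8.67 and 8.80 in NSCL61 and 9.36 and 9.02 in NSCL61-sox11. The lines thus did not overlap, as on 60.5% of all probe sets tested. The log2 difference of 0.45 did not pass (SE 0.13, limma adjusted p = 0.063). It was 0.28 without NSCL61-sox11 array 1 and 0.62, and called, without NSCL61-sox11 array 2 (adjusted p = 0.0093). RefSeq lists 2 transcripts of Cdkn2a, and the files do not say which of them the probe set reads. With levels of 8.67 to 9.90, well above the lowest tested mean of 5.15, the Cdkn2a and Cdkn2b probe sets gave signal on all 4 arrays.

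Cdkn1b, the CIP/KIP member of the set, rose on 1 of its 2 probe sets. On 1419497_at it read 5.80 and 5.73 in NSCL61 and 6.32 and 6.47 in NSCL61-sox11, a log2 difference of 0.63 (SE 0.11, limma adjusted p = 0.011). On the brighter 1434045_at it read 8.58 and 8.47 against 8.73 and 9.11. That difference of 0.39 did not pass (95% interval 0.06 to 0.73, adjusted p = 0.11), and NSCL61-sox11 array 1 lay close to NSCL61. Without that array it was 0.58 and called (adjusted p = 0.013), and without NSCL61-sox11 array 2 it was 0.20. The adjusted p of 1419497_at was 0.059 without NSCL61 array 1 and 0.076 without NSCL61 array 2.

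Rb1, the substrate of the cyclin D kinases and the gatekeeper of E2F, could not be placed. On 1417850_at the NSCL61 arrays read 7.95 and 7.97, but the NSCL61-sox11 arrays read 7.27 and 8.10, on either side of them. The log2 difference was -0.28 (95% interval -0.88 to 0.32, limma adjusted p = 0.51). It was 0.14 without NSCL61-sox11 array 1 and -0.69, and called, without NSCL61-sox11 array 2 (adjusted p = 0.0078). The second probe set, 1444400_at, lay below the level filter at 3.61 to 3.87.

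The scale of the arrays bears on the smaller differences. Scaling to the poly-A spike-in controls lowers every log2 difference by 0.404, with a median of -0.42 over all genes, and scaling to the hybridisation controls lowers it by 0.217. The split of all called probe sets was 2429 higher and 2249 lower on the deposited scale, 558 and 1995 with the poly-A controls, and 1242 and 4656 with the hybridisation controls. All 7 Ccnd2 calls held under both, at -1.88 and -1.69 on the representative probe set. With the poly-A controls Cdk6 was 0.79 higher (adjusted p = 0.056), Cdkn2c 0.55 (adjusted p = 0.19) and Ccnd3 0.04 (adjusted p = 0.90). None of these was called. Cdk4 turned to -0.18, and the Ccnd1 calls were lost (adjusted p = 0.099 and 0.10) although its differences were more negative. With the hybridisation controls Cdk6 and Cdkn2c remained called, at 0.98 and 0.74, Ccnd3 was not (0.23, adjusted p = 0.32), and Rb1 was called at -0.49 (adjusted p = 0.035). With either set of controls limma pooled the variance over all probe sets, so that the spread of a single one, such as that of Rb1, had no weight. The directions above are relative to the deposited scale.

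**Figure D3:**
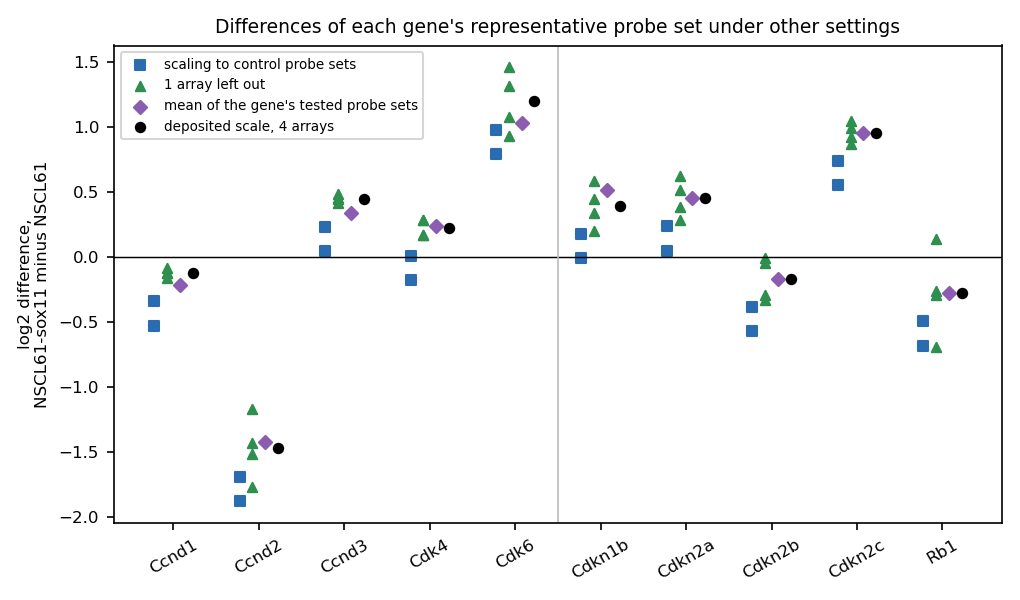
Log2 difference of each gene's representative probe set (vertical axis, NSCL61-sox11 minus NSCL61) on the deposited scale with 4 arrays (black), with the arrays scaled to poly-A or hybridisation controls (blue), with each array left out in turn (green) and as the mean of the gene's tested probe sets (purple). Ccnd2 stays below -1.1 and Cdk6 and Cdkn2c stay above 0.5, while Cdk4, Cdkn1b and Rb1 each cross 0 under at least 1 setting.

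The regions before the start sites of Ccnd3, Cdk6 and Cdkn2c, the genes that rose, are printed because SOX proteins and E2F factors act by binding DNA. They are RefSeq sequences of the mouse assembly GRCm38.p6, read 5′ to 3′ on the strand of the gene and ending at the base before a transcript start of the promoter table. Capitals mark matches, on either strand, to short core motifs: TTCGCGC for E2F, its variants TTGGCGC or, further, TTCCCGC, for SOX proteins ACAAAG or, alternatively, ACAATG. No match overlaps another here. The Cdkn2c window is the one at the outermost of its 2 starts, chr4:109666757-109667006 on the minus strand; the Cdk6 window, which lies inside the span that the gene table gives for Cdk6 (from base 3341004), is chr5:3343643-3343892, and the Ccnd3 window, at the outermost of 2 starts, chr17:47504801-47505050, both on the plus strand.
Cdkn2c: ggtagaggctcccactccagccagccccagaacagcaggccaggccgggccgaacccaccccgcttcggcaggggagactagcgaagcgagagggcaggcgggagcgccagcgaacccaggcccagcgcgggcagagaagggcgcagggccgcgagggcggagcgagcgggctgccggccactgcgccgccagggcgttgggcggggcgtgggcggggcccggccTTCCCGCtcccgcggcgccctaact
Cdk6: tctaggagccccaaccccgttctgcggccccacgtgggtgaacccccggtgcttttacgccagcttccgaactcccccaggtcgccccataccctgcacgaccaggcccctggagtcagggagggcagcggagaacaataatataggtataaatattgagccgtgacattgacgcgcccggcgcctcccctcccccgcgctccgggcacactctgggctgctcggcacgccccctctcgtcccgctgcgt
Ccnd3: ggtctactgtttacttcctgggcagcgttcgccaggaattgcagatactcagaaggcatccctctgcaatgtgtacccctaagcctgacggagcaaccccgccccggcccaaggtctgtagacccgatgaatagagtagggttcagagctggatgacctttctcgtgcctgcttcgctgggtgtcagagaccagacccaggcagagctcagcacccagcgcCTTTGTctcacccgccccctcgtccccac
The Cdkn2c window holds 1 E2F match (TTCCCGC), which begins at position -25 from the start. In 6.69% of the 32851 promoter windows of this length any of the E2F cores was found. The Ccnd3 window holds 1 SOX match (ACAAAG, on the opposite strand), at position -29, as do 25.2% of all windows for any SOX core. The window of the inner Ccnd3 start lies far from it, at chr17:47593217-47593466. Which of the starts gives the Ccnd3 RNA read here is not known. The Cdk6 window, 66% G and C, holds neither. Of the remaining members, Cdkn2a has 1 E2F match in the window of its outermost start, and the windows of Cdk4, Cdkn1b and Cdkn2b hold none of these letters, nor do those of the inner starts of Ccnd3, Cdkn2a and Cdkn2c. A match is a description of the sequence, not a binding site. Windows of Ccnd1, Ccnd2 and Rb1 were not analysed here.

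Genes of the pathway around the members were counted in 7 lists. These lists too were chosen with earlier results of these data known, so their shares are descriptions only. Of 8 other cyclins and kinases of G1 and S entry, 1 rose and 7 did not pass, which is 12.5% called against the 19.2% of all genes, with a median log2 difference of 0.05. The riser was Cdk2, the kinase that follows Cdk4 and Cdk6, which read 9.33 and 9.14 in NSCL61 and 9.57 and 9.65 in NSCL61-sox11 (difference 0.37, limma adjusted p = 0.044). Its E-type cyclins Ccne1 and Ccne2 differed by 0.11 and 0.14 and were not called. Of the 2 tested inhibitors outside the set, 1 rose: Cdkn1a, a CIP/KIP gene best known as a target of p53, was higher by 0.79 in these p53-/- cells (arrays at 8.26 and 7.74 against 8.67 and 8.90, adjusted p = 0.031). This held for 1 of its 2 tested probe sets, and it was not called without NSCL61 array 2, at an adjusted p of 0.12, or without NSCL61-sox11 array 2, at 0.059. Cdkn2d differed by 0.02 and was not called, and Cdkn1c lay below the level filter.

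Of 18 other pocket proteins, E2F and DP factors and MuvB subunits, 3 rose, 1 fell and 14 did not pass, which is 22.2% against the 19.2% of all genes, with a median of 0.05. Rbl1, which encodes the pocket protein related to Rb1, rose from 8.65 and 8.67 to 9.10 and 9.05 (difference 0.42, limma adjusted p = 0.020), on 1 of its 2 tested probe sets. E2f6, a repressive E2F that binds no pocket protein, fell from 9.79 and 9.83 to 9.37 and 9.19 (difference -0.53, adjusted p = 0.013). Tfdp2, a DP partner of E2F, rose by 0.39 (adjusted p = 0.038), as did Rbbp4, a MuvB subunit, by 0.31 (adjusted p = 0.012), and E2f1 differed by 0.13 without being called.

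Downstream, genes of S phase and mitosis were called at shares near that of all genes, in both directions. Of 19 E2F target genes of S phase, 2 rose, 2 fell and 15 did not pass, with a median of 0.00. Rrm2, a subunit of ribonucleotide reductase, fell on all 3 of its probe sets, from 12.23 and 12.11 to 11.63 and 11.73 on the brightest (difference -0.49, limma adjusted p = 0.0067). Rfc3, a clamp loader subunit, rose by 0.51 (limma adjusted p = 0.047). Slbp, which binds histone mRNA, rose by 0.42 (limma adjusted p = 0.018), on 1 of its 2 tested probe sets. Of 12 mitotic genes, 1 rose, 2 fell and 9 did not pass, with a median of 0.09. Kif11, a spindle motor, rose by 0.47 (limma adjusted p = 0.015), on 2 of its 3 tested probe sets. Cenpe, a kinetochore motor, had a difference of -0.34 (limma adjusted p = 0.029), on 1 of its 2 tested probe sets. Plk1, a mitotic kinase, had a difference of -0.29 (limma adjusted p = 0.043). Rrm1, the partner subunit of Rrm2, was the other faller of the S phase list (difference -0.36, adjusted p = 0.013). The called shares were 21.1% and 25%, against 19.2% of all genes.

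Genes known from other work to act on the members were also counted. Whether their differences bear on those of the members was not tested. Of 12 genes of D cyclin and Cdkn1b protein turnover, 1 rose, 1 fell and 10 did not pass, which is 16.7% against the 19.2% of all genes, with a median of -0.03. They were Cops5, a signalosome subunit (difference 0.26, limma adjusted p = 0.037), and Fbxo4, an F-box protein (difference -0.39, adjusted p = 0.038), while Skp2, the F-box protein for the Cdkn1b product, differed by 0.16 and was not called. Of 18 known upstream regulators, 4 rose, 2 fell and 12 did not pass, which is 33.3% against the same 19.2%, with a median of 0.03. Gli2, a transcription factor of the Hedgehog pathway, which is known to act on D cyclin genes, read 6.10 and 6.56 in NSCL61 and 8.50 and 8.77 in NSCL61-sox11 (difference 2.30, adjusted p = 0.00065). Foxo3, a forkhead factor known to raise Cdkn1b and lower D cyclins, rose from 6.78 and 7.10 to 7.91 and 7.95 (difference 0.99, adjusted p = 0.0046). Cbx7, a Polycomb protein that represses the Cdkn2a locus, rose by 0.72 (adjusted p = 0.0066) on 1 of its 2 tested probe sets. Ezh2, another Polycomb repressor of that locus, fell (difference -0.35, adjusted p = 0.028), as did Hmga2, a chromatin protein known to lower Cdkn2a in neural stem cells (difference -0.39, adjusted p = 0.0042; 3 of its 4 tested probe sets called). Foxo1, a forkhead factor related to Foxo3, rose by 0.43 (adjusted p = 0.048) on 1 of its 4. Rbbp4, Rrm1, Ezh2, Hmga2 and Foxo1 were named after their values were seen, to complete the counts. Of the 21 genes called in these lists, 4 were still called without NSCL61 array 1 and 4 without NSCL61 array 2. Cbx7, Foxo3 and Gli2 were among them each time, joined by Cdkn1a and Rrm2 respectively. With NSCL61-sox11 array 1 or array 2 left out, 16 and 14 were still called, and with the poly-A controls 4, each gene being read on the same probe set throughout.

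**Figure D4:**
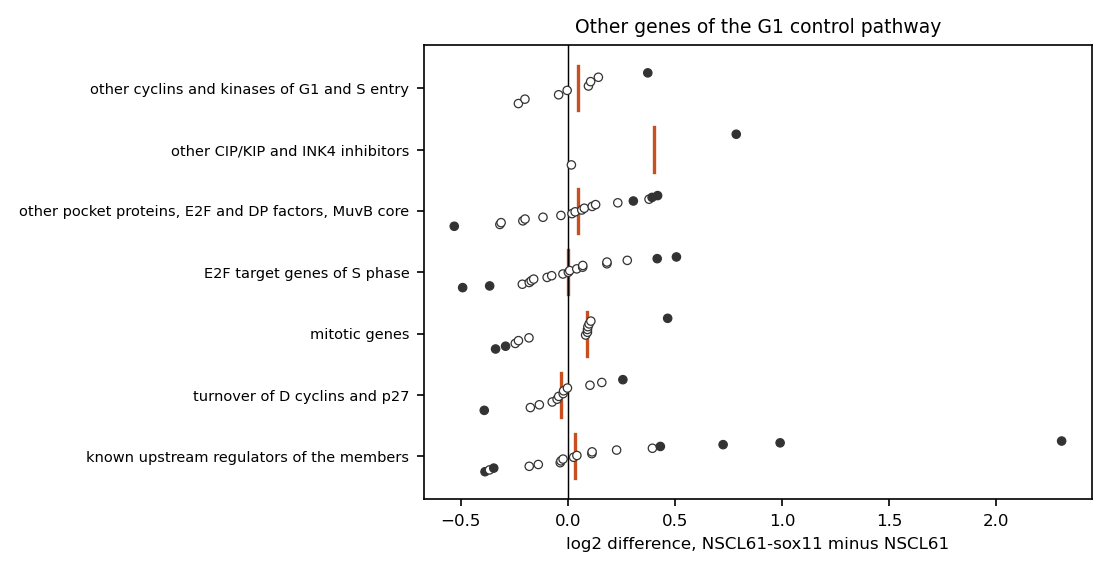
Log2 difference (horizontal axis, NSCL61-sox11 minus NSCL61) of each tested gene of 7 lists from the pathway around the D cyclins; 1 point is 1 gene on its representative probe set, filled where called, and the orange bar is the median of the list. Most points lie within 0.5 of 0, and Gli2 at 2.30 lies farthest out.

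Across the 4 arrays the genes most like Ccnd2, by the Euclidean distance between array levels centred on each gene's own mean, were Mapk10 (distance 0.09), Wnt7b (0.09) and Dusp4 (0.12). Mapk10, a stress-activated kinase, read 7.61 and 7.67 in NSCL61 and 5.81 and 6.37 in NSCL61-sox11. Like Ccnd2, all 3 were lower on NSCL61-sox11 array 1 than on array 2, which follows from picking them for this likeness. With 4 arrays the likeness is a description only.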

How the data were processed

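Per the labels' protocols, total RNA from an RNeasy column was transcribed in vitro into biotin-labelled target and read on 1 Affymetrix M430_2 array per sample. The deposited table holds the authors' processed values, read here as log2 because they run from 2.13 to 14.62; their log base, probe summary and normalization are not given in the sources used here. They were used without further scaling.

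Gene names come from the platform annotation of GEO (34945 with 1 symbol, 932 with several and 9160 with none, the latter groups left unnamed; 0 symbols changed against the GRCm38.p6 gene table). The 60% of non-control probe sets with the highest mean (27022, means of at least 5.15) were fitted with limma 3.58.1 in R 4.3.3 (lmFit, eBayes with trend, two-sided; 2 residual degrees of freedom, 6.36 after moderation), with Benjamini-Hochberg adjustment over all of them. Intervals are from the moderated distribution. Probe sets below the filter come from a fit of all 45037. The number of arrays limits the precision.

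On simulated data of 27022 probe sets with noise from limma's variance prior, the fit called 13.4% of 67 probe sets with a 1.5-fold change. For a 2-fold change it called 82.1% of 67, and for a 4-fold change 98.5% of 66. There were 5 false calls. No other probe sets were changed in the simulation, whereas 17.3% were called in the data. The adjusted threshold was therefore stricter in the simulation, and its called shares do not carry over to the data. Its noise was drawn independently for each array, so the false calls do not cover variation between cultures.

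The 10 genes and all lists were chosen with earlier results of these data known. Named were all members, Sox11, up to 3 called genes of each list with the largest difference, and the 3 genes nearest to the called member of largest difference. Other list genes with values (Ccne1, Ccne2, Cdkn2d, E2f1 and Skp2) were chosen after their values were seen. Alternatives changed the scaling, the filter, the variance model, the arrays, the probe sets and a replicate block.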

Additional observations from a re-analysis of the deposited data

How the results depend on the processing

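Of the 10 member genes, Ccnd2 kept its direction and its call under every alternative run, and Cdkn2c under all but the poly-A scaling. Of the 14 called member probe sets, 13 stayed called with quantile normalization, 14 with median centring, 13 without a level filter, 12 without the variance trend and 14 with robust eBayes. With the poly-A controls 2553 probe sets were called, 558 of them higher, and 0 member probe sets rose among the cyclins and kinases or among the inhibitors; Cdk4 and Cdkn1b turned to -0.18 and -0.012. With the hybridisation controls 1242 probe sets were higher and 4656 lower, and among inhibitors and Rb1 1 rose and 1, that of Rb1, fell. With the brightest 40% of probe sets 1 inhibitor probe set rose, since 1419497_at of Cdkn1b was not tested. Leaving out 1 array gave 1639 to 4947 calls in all, 941 to 2510 higher and 568 to 2437 lower. It gave 0 to 5 risers and 6 to 9 fallers among cyclins and kinases, and 1 to 3 risers and 0 to 1 fallers among inhibitors and Rb1, whose own difference ran from -0.69 to 0.14. A line left with 1 array is assumed to vary like the other. The titles number the arrays 1 and 2 in each line. The deviations of same-numbered arrays correlated at 0.415, but 2 pairs do not show that the numbers pair the samples. With the replicate block 9227 probe sets were called, 4519 higher and 4708 lower. All 14 member calls were kept, and 5 were added, to 6 risers among cyclins and kinases and 4 among inhibitors. The causes of these shifts were not tested. Dim probe sets near 5.15 limit the size of a difference.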

Other observations

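The NSCL61-sox11 arrays differed from each other on several of these genes. Array 1 read lower than array 2 on all 7 Ccnd2 probe sets, by 0.10 to 0.93, and on the tested Rb1 probe set, by 0.83. It read higher on both tested Cdk6 probe sets, by 0.42 and 0.53, and on the Cdkn2a probe set, by 0.34. The median gap between these arrays over all probe sets tested was 0.12, and 5.93% of them had a gap of at least 0.4. The NSCL61 arrays differed by at most 0.20 on any Ccnd2 probe set and by 0.03 on the tested Rb1 probe set. On Ccnd3 (1415907_at), Cdkn2c and Ccnd1 the NSCL61-sox11 arrays lay within 0.08 of each other.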
